A study of Mus musculus with 8 samples.

Results

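The genes described here are those of the mouse major histocompatibility complex (MHC) and of the machinery that makes, carries and loads peptides for it. They were taken from the deposited table by symbol: every gene whose symbol starts with H2-, together with B2m, Tap1, Tap2, Tapbp, Tapbpl, Psmb8, Psmb9, Psmb10, Nlrc5, Erap1, Cd74, Ciita and Cd1d1. This gave 51 of the 22322 genes in the table, of which 31 had enough counts to be tested and 20 did not. By role they comprise 27 class I heavy chain genes, 12 class II chain and partner genes, 10 genes of the class I light chain, peptide supply and loading, and 2 that stand apart, H2-Ke6 and Cd1d1. The rule used names only and no measured value.

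The samples are labelled as primary renal fibroblasts of the mouse. The Ad-Cre group (4 samples) had received an adenovirus carrying Cre recombinase and is labelled as suv39h1 knockdown, and the Ad-GFP group (4 samples) had received an adenovirus carrying green fluorescent protein and is labelled WT. All 8 were stimulated with TGF-β at 5 ng/ml for 48 hours, so neither an uninfected nor an unstimulated sample enters the comparison. The labels give neither the strain, age and sex of the mice, nor the allele that Cre acts on, nor whether replicates came from separate animals or cultures, so the p-values measure no more than how far these samples scatter, and that scatter may be technical. Suv39h1, an enzyme that methylates histone H3 at lysine 9, stood at 25.3, 22.8, 21.6 and 22.6 CPM (counts scaled to the size of the library) in Ad-Cre replicates 1, 2, 3 and 4, and at 29, 27.8, 29.3 and 29.6 CPM in the Ad-GFP ones. All Ad-Cre libraries were lower, and Ad-Cre retained 79.6% of the Ad-GFP level (edgeR adjusted p = 3.293e-05).

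An MHC class I molecule is a heavy chain bound to the light chain β2-microglobulin, made by nearly every nucleated cell, and it shows peptides of the cell's own proteins to CD8 T cells. Those peptides are cut by the proteasome, in which interferon-induced subunits can replace the constitutive ones, moved into the endoplasmic reticulum by the TAP transporter and loaded there with the help of tapasin. Class II molecules pair an α with a β chain, travel with the invariant chain Cd74 and are made mainly by professional antigen-presenting cells such as dendritic cells, B cells and activated macrophages. Nlrc5 is the transactivator of class I genes and Ciita that of class II genes. Both act through promoter elements known as the S, X and Y boxes, and class I promoters also carry an enhancer bound by NF-κB and an interferon-stimulated response element.

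The proximal promoters of 5 class I pathway genes and 1 class II gene that fell are shown so that matches to some of these elements can be read in place. Each of the 6 windows holds a Y box core, 5 of them an NF-κB motif, and 1, that of B2m, the interferon response element core; the S box was not searched. Sequences are RefSeq windows on GRCm38.p6, from 250 bases before to 50 bases after the annotated start, 5′ to 3′ on the gene's strand. Capitals mark matches on either strand to GAAA and GAAA with 2 bases between (the interferon response element core), TTCNNNGAA (a STAT site), CCAAT (the Y box core), GGGA and CCC with 3 bases between (an NF-κB site) and TGACGT (a cyclic AMP response element core, as in the X2 box). Where the NF-κB motif matches both strands a base apart, the run of capitals is 1 site. Only these exact patterns were searched, so a window without a match may still hold a variant of the element.
B2m (chr2:122147437-122147736, plus strand): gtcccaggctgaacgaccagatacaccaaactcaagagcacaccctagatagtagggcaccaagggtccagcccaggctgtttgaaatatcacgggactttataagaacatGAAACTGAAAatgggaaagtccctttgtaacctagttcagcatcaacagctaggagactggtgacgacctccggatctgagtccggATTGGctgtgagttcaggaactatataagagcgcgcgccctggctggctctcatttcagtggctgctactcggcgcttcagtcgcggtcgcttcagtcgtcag
H2-K1 (chr17:34000298-34000597, minus strand): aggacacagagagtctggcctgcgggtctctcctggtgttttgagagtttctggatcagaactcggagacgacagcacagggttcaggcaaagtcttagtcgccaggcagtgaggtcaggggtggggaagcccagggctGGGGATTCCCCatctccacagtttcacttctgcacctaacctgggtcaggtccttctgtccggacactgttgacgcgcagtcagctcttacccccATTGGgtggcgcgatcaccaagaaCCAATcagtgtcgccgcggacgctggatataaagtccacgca
H2-D1 (chr17:35262844-35263143, plus strand): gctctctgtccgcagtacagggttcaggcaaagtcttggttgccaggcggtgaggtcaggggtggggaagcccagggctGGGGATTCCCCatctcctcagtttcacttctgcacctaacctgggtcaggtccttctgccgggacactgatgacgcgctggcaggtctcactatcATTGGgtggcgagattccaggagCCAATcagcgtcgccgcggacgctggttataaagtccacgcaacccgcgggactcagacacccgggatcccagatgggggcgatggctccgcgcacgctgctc
H2-Q6 (chr17:35424600-35424899, plus strand): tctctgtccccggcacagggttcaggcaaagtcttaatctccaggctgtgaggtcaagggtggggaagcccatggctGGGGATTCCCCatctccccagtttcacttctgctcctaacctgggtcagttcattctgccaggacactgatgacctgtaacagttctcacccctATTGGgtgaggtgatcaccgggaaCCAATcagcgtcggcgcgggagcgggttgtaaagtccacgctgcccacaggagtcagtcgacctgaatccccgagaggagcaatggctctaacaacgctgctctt
H2-Q7 (chr17:35438905-35439204, plus strand): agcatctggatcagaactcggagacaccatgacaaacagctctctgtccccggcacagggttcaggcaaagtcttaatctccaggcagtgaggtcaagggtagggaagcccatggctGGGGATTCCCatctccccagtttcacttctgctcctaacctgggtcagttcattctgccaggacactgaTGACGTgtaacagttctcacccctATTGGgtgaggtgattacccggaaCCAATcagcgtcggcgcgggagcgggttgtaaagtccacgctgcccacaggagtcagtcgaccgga
H2-Aa (chr17:34287774-34288073, minus strand): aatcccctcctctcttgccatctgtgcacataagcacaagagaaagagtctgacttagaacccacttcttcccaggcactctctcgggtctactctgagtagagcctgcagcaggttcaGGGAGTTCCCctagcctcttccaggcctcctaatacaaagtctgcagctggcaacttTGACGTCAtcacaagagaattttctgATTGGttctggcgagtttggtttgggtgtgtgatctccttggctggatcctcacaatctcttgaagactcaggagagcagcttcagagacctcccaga

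Windows were found for 38 of the 51 genes, 11 of them genes that fell and 10 of them tested genes that did not fall. The NF-κB motif occurred in 6 of the 11 windows of falling genes and in 0 of the 10 others, against 5.55% of all 32851 windows of this length in the mouse set. Of those 6 windows 5 belong to class I heavy chain genes, which are related in sequence, so they are not separate observations: the H2-Q6 and H2-Q7 windows were 85% identical, and H2-Q6 and H2-D1 80.7%. The Y box core was in 10 of 11 windows of falling genes, in 7 of 10 of the others and in 37.4% of all windows. TGACGT was in 4 of 11, in 0 of 10 and in 7.51% of all windows. The interferon response element core was in 2 of 11 (B2m and H2-T22), in 2 of 10 and in 3.44% of all windows, and the STAT motif in 1 of 11, in 1 of 10 and in 8.3% of all windows. A match is a description of the letters in the window, and binding was not measured. Variant forms of the elements were not counted.

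In Ad-Cre, 14 of the 31 tested genes fell, 1 rose and 16 did not pass the test. The falls reach across both pathways: B2m, the classical heavy chain genes H2-K1 and H2-D1, the non-classical H2-Q4, H2-Q6, H2-Q7 and H2-T22, the supply genes Tap1, Psmb8 and Nlrc5, and the class II genes H2-Aa, H2-Ab1, H2-Eb1 and Cd74. The gene that rose, H2-Ke6, lies in the MHC but encodes a steroid dehydrogenase and has no part in antigen presentation. The falling genes made 45.2% of those tested, where 20.5% of all 13337 tested genes fell, 19.8% rose and 40.3% changed in either direction (edgeR's quasi-likelihood test, adjusted p under 0.05). The median log2 fold change was -0.24 over the 31 genes and 0.004 over all genes tested. The CPM of the groups did not overlap for 13 of the 31, against 35.4% of all genes tested. Most falls were small. Only H2-Q6 and H2-Q7 both passed the test and were at or under 50% of their Ad-GFP level, as were 1.79% of all tested genes. The authors' deposited table had 11 of the 51 genes lower and 1 higher at an FDR under 0.05. Of all 17653 genes with a p-value under 1 in it, 12.3% were lower at that FDR. H2-Ab1, H2-Eb1 and H2-Q4, which fell here, were not among the 11.

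**Figure D1:**
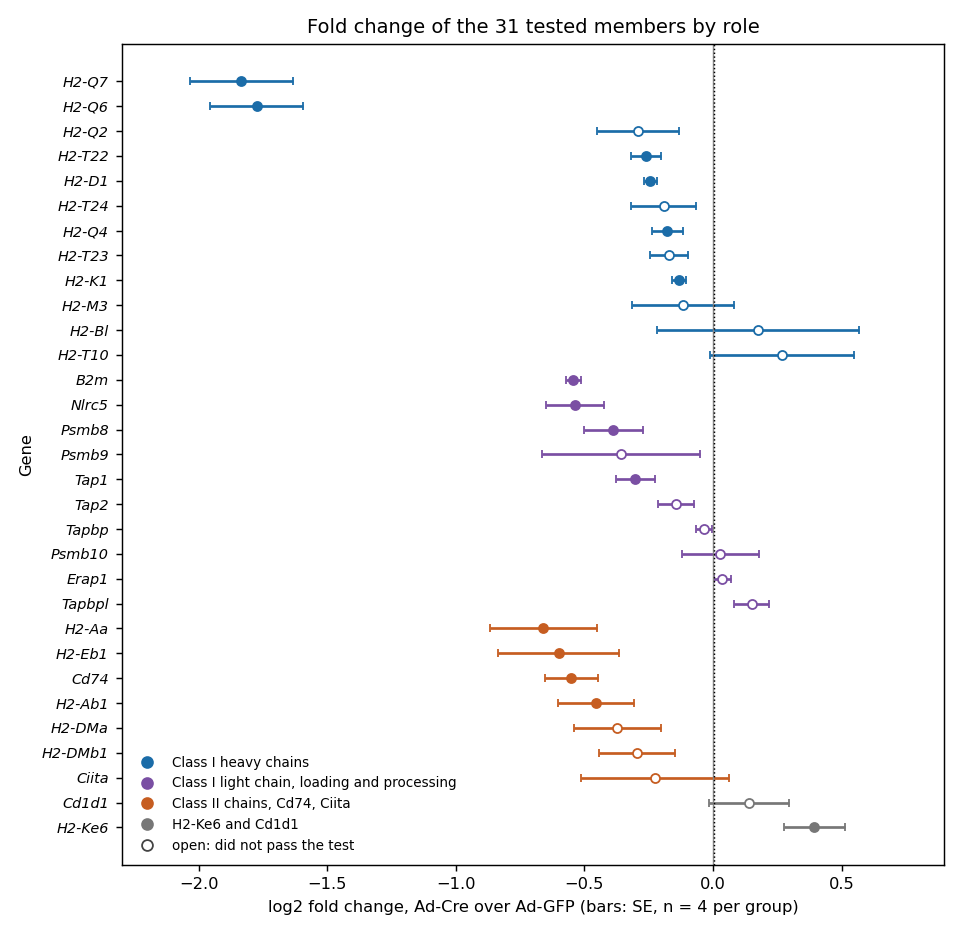
Log2 fold change, Ad-Cre over Ad-GFP, of each tested gene with its SE (n = 4 per group); filled points passed the test and open points did not, and the dotted line is the median of all genes tested (0.004). H2-Q7 and H2-Q6 stand at the left, at -1.83 and -1.78, and every class II point is below 0.

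B2m encodes the light chain that all class I molecules need to reach the surface. In the order of replicates 1 to 4, used throughout, the Ad-Cre libraries held 220.5, 246.1, 228.5 and 246.8 CPM of it, and the Ad-GFP libraries 352.4, 341.4, 348.5 and 331.3 CPM. All Ad-Cre libraries lay well below all Ad-GFP libraries. The fall was to 68.6% of the Ad-GFP level (log2 fold change -0.54 ± 0.0303, SE, n = 4 per group; adjusted p = 1.366e-13), and over 17 alternative settings the log2 fold change stayed between -0.567 and -0.515. B2m was the most abundant of these genes per length, at 271.7 ± 15.2 FPKM in Ad-Cre and 402 ± 10.5 FPKM in Ad-GFP (SD, n = 4 each). It lies on chromosome 2 at 122147686 to 122153083 (GRCm38, plus strand), away from the MHC on chromosome 17, and none of its 50-base transcript windows occurs in the transcripts of another gene.

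The classical heavy chain genes H2-D1 and H2-K1, whose products present peptides to CD8 T cells, also fell. H2-D1 (chromosome 17, 35262730 to 35267499) stood at 193.9, 203.9, 199 and 196.1 CPM in Ad-Cre libraries, and at 235.4, 238.9, 230.2 and 234.5 CPM in Ad-GFP libraries. The groups were far apart relative to their spread, and Ad-Cre held 84.5% of the Ad-GFP level (log2 fold change -0.24 ± 0.0245, SE; adjusted p = 1.048e-08). H2-K1 (chromosome 17, 33996017 to 34000347) was at 215.9, 213.6, 215.3 and 208.6 CPM in Ad-Cre, against 237, 237.1, 239.8 and 221.5 CPM in Ad-GFP. Its groups did not overlap, though Ad-GFP replicate 4 came close to the Ad-Cre libraries, and the level in Ad-Cre was 91.2% of Ad-GFP (log2 fold change -0.13 ± 0.0262, SE; adjusted p = 0.000214). Both calls held under all 17 alternatives.

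The proportion of light to heavy chain transcripts was lower in all Ad-Cre libraries. Summed over the 27 heavy chain genes, the level was 485.9, 491.5, 490.8 and 476.5 CPM in Ad-Cre libraries, and 564.3, 564.3, 563 and 544.7 CPM in Ad-GFP libraries, so Ad-Cre held 87% of the Ad-GFP sum. For every 100 CPM of heavy chain transcripts there were 45.4 to 51.8 CPM of B2m in Ad-Cre and 60.5 to 62.5 CPM in Ad-GFP. The ranges of this ratio were separate. It is given as a description without a test, and it is a ratio of transcripts uncorrected for length, not of protein chains.

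H2-Q6 and H2-Q7, genes of the Qa-2 family of non-classical class I molecules, had the largest falls of the 31 tested genes. H2-Q6 was covered by 27, 25, 26 and 25 counts in Ad-Cre libraries and by 85, 63, 66 and 73 counts in Ad-GFP libraries, although every Ad-Cre library was deeper. That is 1.24 ± 0.2 CPM in Ad-Cre against 4.21 ± 0.629 CPM in Ad-GFP (SD, n = 4 each), or 29.2% of the Ad-GFP level (adjusted p = 1.495e-08). H2-Q7 was covered by 18, 18, 26 and 17 counts in Ad-Cre and by 58, 62, 61 and 49 counts in Ad-GFP, at 28.0% of the Ad-GFP level (adjusted p = 4.432e-08). The size of these falls depended on the scale: with limma on log2(FPKM + 1), which understates the change of low genes, the log2 fold change was -0.94 for H2-Q6 and -1.08 for H2-Q7, against -1.78 and -1.83 in the count test. In both genes the highest Ad-Cre library was under 50% of the lowest Ad-GFP library in CPM. Their neighbour H2-Q4, better covered, moved far less: 22.16, 20.69, 21.77 and 19.26 CPM in Ad-Cre and 22.25, 23.67, 23.52 and 25.26 CPM in Ad-GFP, with Ad-Cre replicate 1 just under Ad-GFP replicate 1. H2-Q4 was at 88.5% of Ad-GFP (adjusted p = 0.0212), and that call was lost without Ad-Cre replicate 4 (adjusted p = 0.087) or Ad-GFP replicate 4 (adjusted p = 0.0796), in a range of 0.0109 to 0.087 over its alternatives apart from the sum of the H2-Q genes. H2-Q2, at 3.11 ± 0.279 CPM in Ad-Cre and 3.81 ± 0.77 CPM in Ad-GFP (SD, n = 4 each), did not pass the test, but did so without Ad-GFP replicate 2 (adjusted p = 0.0327; range 0.0327 to 0.376 apart from the sum of the H2-Q genes).

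The H2-Q genes are near copies, and reads from them can be assigned to the wrong member. Of the 50-base windows of the protein-coding H2-Q6 transcripts 35% also occur in transcripts of another gene, with 13.9% of its windows in H2-Q7 and 12.3% in H2-Q4. For H2-Q7 the share is 34.9%, with 17.4% in H2-Q5 and 17% in H2-Q6. For H2-Q4 it is 39.2%, with 16.1% in Gm11131, an antisense gene that overlaps its exons, and 7.68% in H2-Q6. The ratio of count to FPKM, which follows the length assumed for a gene, also differed between libraries for H2-Q6, and by more for Nlrc5 (1.28-fold), Erap1 (1.57-fold) and Ciita (1.73-fold), so it is not known whether the counts are rounded estimates. The sources used here do not give how shared reads were handled. With H2-Q6 and H2-Q7 summed to 1 feature, the fall remained (log2 fold change -1.80, adjusted p = 5.81e-11; this sum was added after the values were seen). Summed over all H2-Q genes, the log2 fold change was -0.42 (adjusted p = 1.12e-06), with 26.5 ± 1.91 CPM in Ad-Cre and 35.4 ± 1.97 CPM in Ad-GFP (SD, n = 4 each).

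Among the H2-T genes, which encode other non-classical chains, H2-T22 fell and the others did not pass the test. H2-T22, whose product is recognised by a subset of γδ T cells, was at 17.6, 18.1, 16.3 and 18.1 CPM in Ad-Cre and at 21.2, 20.7, 21.3 and 20.9 CPM in Ad-GFP. The groups did not overlap, and Ad-Cre was at 83.5% of Ad-GFP (adjusted p = 0.00106). H2-T22 shares 37.5% of its transcript windows with H2-T10, which had 0.927 ± 0.155 CPM in Ad-Cre and 0.773 ± 0.194 CPM in Ad-GFP (SD, n = 4 each), and 1003 bases of its exons lie across from the antisense gene A930015D03Rik. H2-T23, encoding Qa-1, which presents leader peptides of other class I chains to natural killer cell receptors, was at 21.8 ± 1.66 CPM in Ad-Cre and 24.5 ± 3.11 CPM in Ad-GFP (SD, n = 4 each; adjusted p = 0.0654). Ad-GFP replicate 4, at 19.9 CPM, lay below all Ad-Cre libraries, and without it H2-T23 passed the test (log2 fold change -0.256, adjusted p = 0.00299). H2-T23 also passed without Ad-Cre replicate 3, with upper-quartile factors (adjusted p = 0.0407), no filter (0.048), a mean of at least 5 CPM (0.0437) and the replicate block (0.0363). Its result was the same in 11 of 17 alternatives. Apart from the sum of the H2-T genes, its adjusted p ranged from 0.00299 to 0.213. H2-T24 was at 87.6% of Ad-GFP, H2-M3, whose product presents formylated peptides, at 92.2%, and H2-Bl, scarce in all libraries, at 112.8%, without passing the test.

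Of the 27 heavy chain genes 15 were not tested. None of the 15 had more than 6 counts in a library, and H2-M10.1, H2-M10.3, H2-M10.4, H2-M10.5, H2-M10.6 and H2-M11 had 0 counts in all 8. The highest count in a library was 6 for H2-Q5, 5 for H2-Q10, 3 for H2-T3, 2 for H2-M1, H2-M2 and H2-Q1, and 1 for H2-M10.2, H2-M5 and H2-M9. Over the 153158977 counts of all libraries, a count of 0 allows up to 0.0196 CPM (3 counts, covering counting error only). The H2-M10 genes are known as partners of pheromone receptors in the vomeronasal organ.

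**Figure D2:**
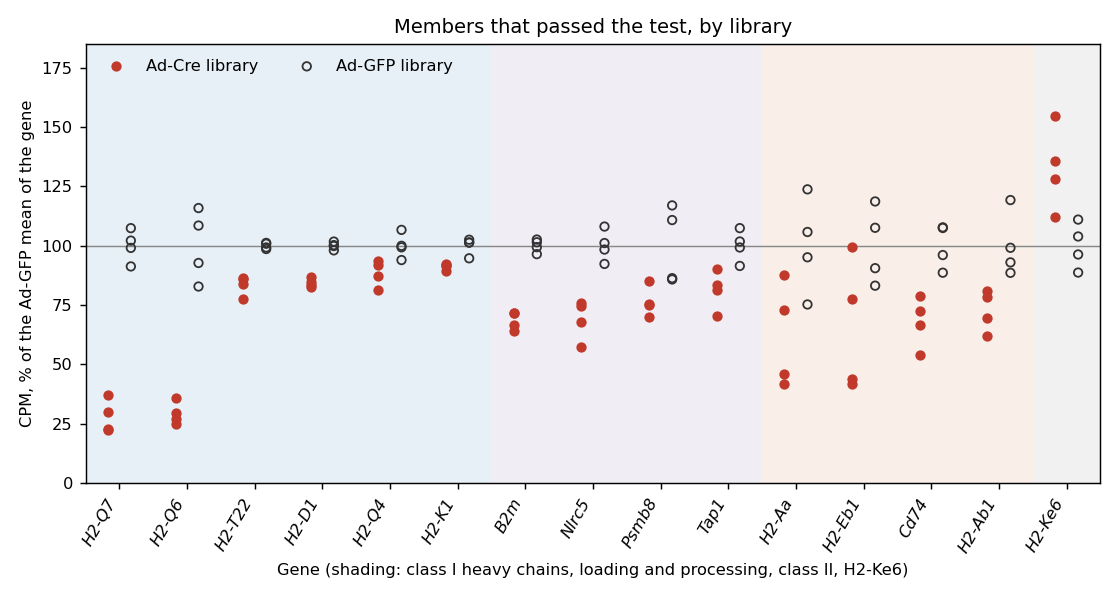
CPM of each gene that passed the test, as a percentage of its Ad-GFP mean; each point is 1 library (4 Ad-Cre, filled; 4 Ad-GFP, open), and shading marks the role. Ad-Cre points of H2-Q6 and H2-Q7 lie lowest, those of B2m well under its Ad-GFP points, while H2-Aa and H2-Eb1 overlap their Ad-GFP points.

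The genes that supply and load class I peptides divided into a part that fell and a part that did not pass the test, with 4 of 10 falling and 0 rising. Besides B2m, those that fell were Tap1, Psmb8 and Nlrc5. Tap1, a subunit of the peptide transporter, was at 16, 14.5, 12.5 and 14.9 CPM in Ad-Cre and at 19.1, 17.6, 18.1 and 16.3 CPM in Ad-GFP. The highest Ad-Cre and lowest Ad-GFP libraries nearly met, and Ad-Cre was at 81.1% of Ad-GFP (adjusted p = 0.00223). Its partner subunit gene Tap2 was at 17.8 ± 1.47 CPM in Ad-Cre and 19.6 ± 1.15 CPM in Ad-GFP (SD, n = 4 each; adjusted p = 0.0961), and it passed the test without Ad-Cre replicate 1 (adjusted p = 0.0448; range 0.0448 to 0.315).

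Psmb8, encoding an interferon-induced proteasome subunit, was at 5.76, 6.18, 7.02 and 6.21 CPM in Ad-Cre and at 7.11, 9.13, 9.63 and 7.07 CPM in Ad-GFP. Ad-GFP replicates 1 and 4 were close to the highest Ad-Cre library, and Ad-Cre held 76.4% of the Ad-GFP level (adjusted p = 0.00836). The other interferon-induced subunit genes did not pass the test: Psmb9 was at 0.627 ± 0.148 CPM in Ad-Cre and 0.818 ± 0.225 CPM in Ad-GFP, and Psmb10 at 5.48 ± 1.19 CPM in Ad-Cre and 5.41 ± 1.15 CPM in Ad-GFP (SD, n = 4 each). Nlrc5, the class I transactivator gene, was at 5.32, 4.84, 4.09 and 5.39 CPM in Ad-Cre and at 7, 7.19, 7.68 and 6.57 CPM in Ad-GFP. Its groups were clearly separate and Ad-Cre was at 68.9% of Ad-GFP (adjusted p = 0.000491).

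The genes of the loading step itself did not pass the test. Tapbp, encoding tapasin, was at 110.8 ± 4.1 CPM in Ad-Cre and 113.8 ± 3.49 CPM in Ad-GFP, and Erap1, the aminopeptidase that trims peptides in the endoplasmic reticulum, at 84.4 ± 2.37 CPM in Ad-Cre and 82.3 ± 2.88 CPM in Ad-GFP (SD, n = 4 each). On the deposited FPKM scale Erap1 was at 20.8 ± 3.7 FPKM in Ad-Cre and 17.7 ± 1.85 FPKM in Ad-GFP (SD, n = 4 each), also without passing the test. Tapbpl, encoding a tapasin-related peptide editor, was at 110.9% of Ad-GFP, with 3 Ad-Cre libraries above all Ad-GFP libraries (adjusted p = 0.0765). Exons of Tap1 and Psmb9 overlap each other on opposite strands over 212 bases, those of Psmb8 overlap Gm20496 over 498, those of Tapbp overlap Gm19412 over 904 and those of Erap1 overlap Cast over 834. The sources used here do not give the strand setting of the counting, so these counts may include reads of the partner gene.

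Class II transcripts were scarce and fell as well: 4 of the 7 tested genes passed the test, all lower, with a median log2 fold change of -0.46. Cd74, the invariant chain gene, was the most abundant per length, at 6.25 ± 0.956 FPKM in Ad-Cre and 9.32 ± 0.866 FPKM in Ad-GFP (SD, n = 4 each). It was at 7.72, 8.37, 6.25 and 9.11 CPM in Ad-Cre and at 10.3, 11.1, 12.5 and 12.4 CPM in Ad-GFP. No Ad-Cre library reached the lowest Ad-GFP library, and Ad-Cre was at 68.3% of Ad-GFP (log2 fold change -0.55 ± 0.104, SE; adjusted p = 0.000128). That call held under all 17 alternatives.

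The chains of the I-A molecule rested on few counts. H2-Aa, its α chain gene, had 25, 70, 32 and 54 counts in Ad-Cre and 44, 75, 60 and 51 counts in Ad-GFP, so that Ad-Cre replicates 1 and 3 were low and replicates 2 and 4 higher. It was at 63.3% of Ad-GFP (adjusted p = 0.0132), and it no longer passed without Ad-Cre replicate 3 (adjusted p = 0.0559) or without Ad-GFP replicate 2 (0.0709), in a range of 0.00187 to 0.0709. H2-Ab1, the β chain gene, had 46, 69, 70 and 72 counts in Ad-Cre and 72, 70, 84 and 59 counts in Ad-GFP. Scaled for depth its groups did not overlap, at 3.03 ± 0.361 CPM in Ad-Cre and 4.16 ± 0.564 CPM in Ad-GFP (SD, n = 4 each; adjusted p = 0.0164), but leaving out Ad-GFP replicate 3 ended the call (adjusted p = 0.0781; range 0.0122 to 0.0781).

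H2-Eb1, the β chain gene of the I-E molecule, was the least stable of the calls. Its counts were 19, 24, 39 and 53 in Ad-Cre and 50, 47, 34 and 35 in Ad-GFP, so Ad-Cre replicates 1 and 2 were low and Ad-Cre replicate 4 lay within the Ad-GFP range in CPM. At 65.9% of Ad-GFP it passed with an adjusted p = 0.0443. The call was lost without Ad-Cre replicate 1 (adjusted p = 0.129), Ad-Cre replicate 2 (0.163), Ad-GFP replicate 1 (0.137), Ad-GFP replicate 2 (0.104) or Ad-GFP replicate 4 (0.0556), in a range of 0.00672 to 0.163. It was also lost with DESeq2 (0.0632) and with limma on log2(FPKM + 1) (0.0824) and log2(FPKM + 0.1) (0.0849), so that it held in 8 of 16 alternatives. Its α chain partner gene H2-Ea had 0 counts in all 8 libraries. Mice of the H2b haplotype, such as C57BL/6, are known to carry a deletion that silences H2-Ea, but the labels do not give the strain.

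The remaining class II genes did not pass the test. H2-DMa and H2-DMb1, which encode the chains of the peptide exchange factor H2-DM, were at 77.2% and 81.4% of Ad-GFP with adjusted p-values of 0.082 and 0.118. H2-DMa passed without Ad-GFP replicate 2 (adjusted p = 0.0343, range 0.0343 to 0.285). It also passed with limma on log2(FPKM + 1) and log2(FPKM + 0.1). Ciita, the class II transactivator gene, was at 0.774 ± 0.235 CPM in Ad-Cre and 0.889 ± 0.106 CPM in Ad-GFP (SD, n = 4 each), and did not pass the test (adjusted p = 0.56). H2-DMb1 shares 27.2% of its transcript windows with H2-DMb2. Not tested were H2-DMb2, with at most 7 counts in a library, H2-Ob with 2, H2-Oa with 1, and H2-Eb2 and H2-Ea with 0.

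Set side by side, class II transcripts were lower in Ad-Cre by more than the sum of class I heavy chain transcripts. The libraries did not separate on the proportion of the 2 sums. The heavy chain sum leaves out the class I light chain gene B2m, which was at 68.6% of Ad-GFP. The class II chains and Cd74 summed to 17.6, 22.1, 20.4 and 23.8 CPM in Ad-Cre and to 27.6, 29.2, 32 and 30.2 CPM in Ad-GFP, or 70.5% of Ad-GFP, where class I heavy chains were at 87%. Per 100 CPM of class I heavy chains, class II transcripts made 3.62, 4.5, 4.16 and 5 CPM in Ad-Cre and 4.9, 5.18, 5.69 and 5.54 CPM in Ad-GFP. Ad-Cre replicate 4 thus exceeded Ad-GFP replicate 1. The difference between the classes was not tested, since the sums were built from genes chosen with results known.

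**Figure D3:**
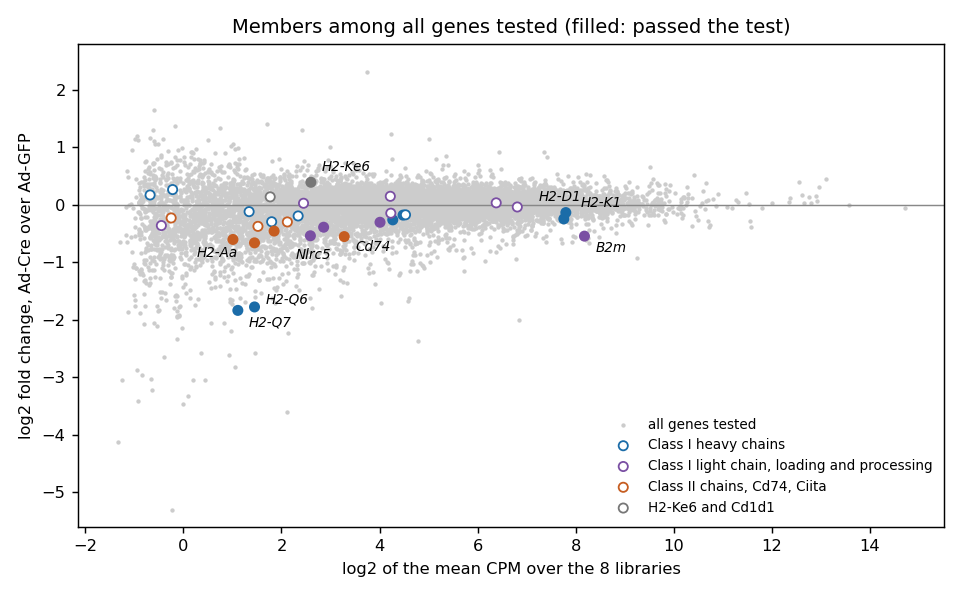
Log2 fold change (Ad-Cre over Ad-GFP) against the log2 of the mean CPM over the 8 libraries for all 13337 genes tested (grey) and the 31 described here (coloured by role; filled passed the test). B2m, H2-K1 and H2-D1 lie at the abundant end with small falls, while H2-Q6 and H2-Q7, near -1.8, lie among the scarce genes.

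H2-Ke6, an oxidoreductase gene of the MHC, was the 1 gene of the 31 tested that rose, at 8.06, 5.85, 6.68 and 7.07 CPM in Ad-Cre and 5.79, 5.42, 5.02 and 4.63 CPM in Ad-GFP. The lowest Ad-Cre library was barely above the highest Ad-GFP library, and Ad-Cre was at 131.4% of Ad-GFP (adjusted p = 0.00997; range 0.0033 to 0.0638). Of its transcript windows 61.6% occur in the overlapping gene Gm20427, and limma on the deposited FPKM did not call it. Cd1d1, whose product presents lipids to natural killer T cells, was at 3.56 ± 0.58 CPM in Ad-Cre and 3.26 ± 0.36 CPM in Ad-GFP (SD, n = 4 each; adjusted p = 0.502). Between the outermost of these genes on chromosome 17 (33915899 to 37483552, an interval chosen after the values were seen), 84 other genes were tested. Of these 16 fell (19%) and 12 rose, where 20.5% of all genes tested fell and 19.8% rose. The share that fell was thus near that of all genes, and the median log2 fold change of the 84 was -0.009.

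Other genes of the pathways were counted from lists of names, to be read against the 20.5% that fell and 19.8% that rose of all genes tested. These lists, and the marker lists below, were chosen with earlier results of these data known. Of 13 further peptide loading and proteasome genes 3 fell (23.1%) and 2 rose, a share near that of all genes: the chaperone gene Canx rose to 114.2% and the aminopeptidase gene Lnpep to 117.5% of Ad-GFP, while the peptidase gene Tpp2 fell to 94.2% and the constitutive proteasome subunit gene Psmb5 to 92.9%. Of 10 class II pathway helpers 4 fell (40% of those tested) and 2 rose. The thiol reductase gene Ifi30 fell to 82.9% and the costimulatory receptor gene Cd40 to 83.4%, while the cathepsin gene Ctsl rose to 106.4% and the ubiquitin ligase gene Marchf8 to 109.8%. Of 10 MHC-like and natural killer ligand genes 4 of 8 tested fell and 1 rose. Ulbp1, a ligand of the activating receptor NKG2D, fell to 56.3% and Procr, encoding the endothelial protein C receptor, to 60.02%, while Fcgrt, encoding the neonatal Fc receptor, rose to 111.9%. Cd1d2 had 0 counts in all libraries.

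Among regulators the shares that fell were, for lists this short, near the 20.5% of all genes tested. Of 15 transcriptional regulators of MHC genes 2 fell (13.3%) and 2 rose: the interferon regulatory factor gene Irf8, expressed mainly in myeloid cells, fell to 50.6% and the H3K27 methyltransferase gene Ezh2 to 87.9%, while Nfkb1 rose to 127.7% and Rfx5, a subunit gene of the X box factor, to 116.1%. Of 18 interferon-γ signalling genes 16 were tested, and 3 fell (18.8%) and 3 rose. The kinase gene Jak2 fell to 78.9% and the guanylate binding protein gene Gbp3 to 68.3%, while the suppressor gene Socs3 rose to 127.0% and Jak1 to 109.0%. Irf1, encoding an interferon-induced transcription factor, was at 30.5 ± 1.57 CPM in Ad-Cre and 32.8 ± 0.622 CPM in Ad-GFP (SD, n = 4 each) and did not pass the test.

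Markers of several cell types moved in the same libraries, and in bulk RNA fewer cells of a type cannot be told apart from less RNA per cell. Among 16 markers of macrophages and other leukocytes, all tested, 12 fell (75%) and 0 rose, where 20.5% of all genes tested fell and 19.8% rose. The summed level of this list was 288.2 to 299.9 CPM in Ad-Cre and 333.6 to 386.6 CPM in Ad-GFP. Its most abundant genes were Lyz2, at 113.2 ± 3.25 CPM in Ad-Cre and 126.3 ± 9.3 CPM in Ad-GFP, and Csf1r, at 33.0 ± 2.22 CPM in Ad-Cre and 40.0 ± 2.42 CPM in Ad-GFP (SD, n = 4 each). None of the 16 was at 0. Class II transcripts per 100 CPM of these markers ranged from 5.9 to 8.22 CPM in Ad-Cre and from 7.55 to 9.05 CPM in Ad-GFP, with overlapping ranges. Of 8 dendritic cell markers 2 were tested, and they differed in direction. Itgax, also a macrophage gene, fell to 71.2% of Ad-GFP. Zbtb46 was at 120.3% of Ad-GFP and did not pass the test (adjusted p = 0.055). Cd209a and Ccr7 had 0 counts in all libraries. Of 8 B and T cell markers only Cd4 had enough counts to be tested, at 1.53 ± 0.546 CPM in Ad-Cre and 1.35 ± 0.294 CPM in Ad-GFP (SD, n = 4 each), and Cd3e, Cd3d and Cd8a had 0 counts. The part of these cells in the MHC values was not tested.

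Of 15 endothelial markers 14 were tested, and 12 fell (85.7% of those tested) and 0 rose, against the same 20.5% and 19.8% of all genes. The sum of the 15 was 87.5 to 97.2 CPM in Ad-Cre and 179.6 to 184.5 CPM in Ad-GFP. It was led by Cdh5, at 18.9 ± 1.61 CPM in Ad-Cre and 39.4 ± 1.49 CPM in Ad-GFP (SD, n = 4 each), and by Pecam1. The 8 epithelial markers summed to 4658 to 4733 CPM in Ad-Cre and 5087 to 5302 CPM in Ad-GFP. Of these 3 rose and 4 fell (50%), Krt8 and Cldn4 being the most abundant. The 10 fibroblast markers summed to 468.6 to 543 CPM in Ad-Cre and 732.7 to 779.8 CPM in Ad-GFP. Of the 9 tested, 5 fell (55.6%) and 0 rose. Vim, at 167 ± 7.69 CPM in Ad-Cre and 251.9 ± 5.65 CPM in Ad-GFP, and Col1a1, at 131.4 ± 10 CPM in Ad-Cre and 206.6 ± 11.1 CPM in Ad-GFP, were the most abundant (SD, n = 4 each), and Lum was too low to be tested. Epithelial marker transcripts thus exceeded those of fibroblast markers in libraries labelled as fibroblasts, and the cells that made the MHC transcripts were not determined.

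**Figure D4:**
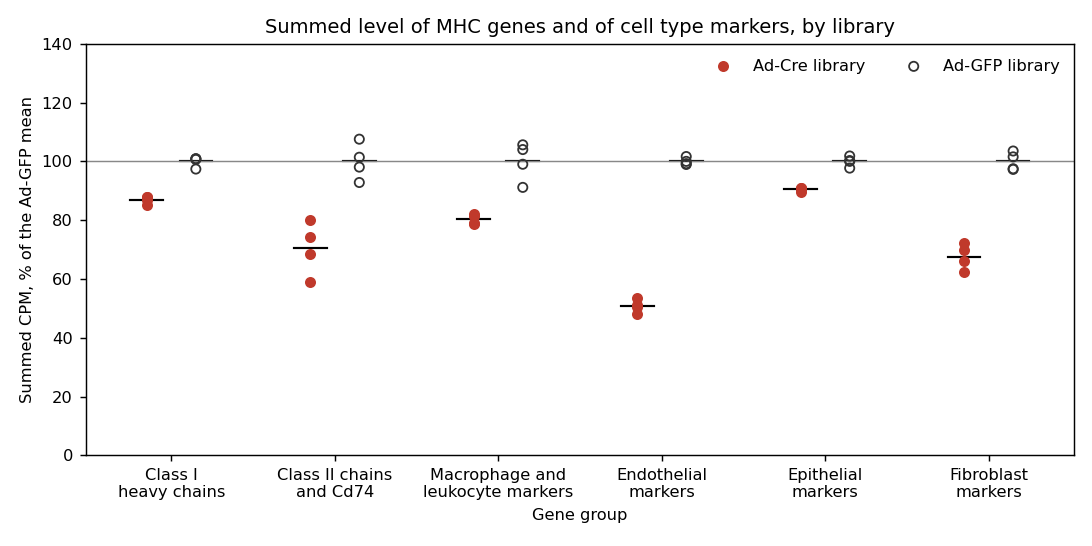
Summed CPM of each gene group as a percentage of its Ad-GFP mean, for 4 Ad-Cre (filled) and 4 Ad-GFP (open) libraries; bars are group means. Class I heavy chains sit near 87% and class II transcripts near 70.5% in Ad-Cre. The sums of macrophage and leukocyte, endothelial, epithelial and fibroblast markers are all lower in Ad-Cre too, although 3 of the 8 epithelial markers rose.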

How the data were processed

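RNA from 8 samples was sequenced, and the authors deposited 1 table of whole-number read counts and FPKM values (fragments scaled to gene length and sequencing depth) per gene, with group mean FPKM, a log2 fold change, a p-value and an FDR, per the file headers. The submitters' processing notes name GRCm38 and mm10; the sources used here give neither aligner and counter nor strand setting and annotation. How MHC reads of another haplotype than the reference's would be counted was not tested.

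Deposited counts were tested with edgeR 4.0.16 in R 4.3.3: filterByExpr kept 13337 of 22322 genes, TMM factors were 0.992 to 1.01, and the groups were set against each other by the two-sided quasi-likelihood F-test, with Benjamini-Hochberg adjustment over all genes tested and a threshold of 0.05. Library totals were 18006938 to 23940043 counts in Ad-Cre and 15879244 to 17930632 in Ad-GFP. CPM are relative to TMM-scaled totals, and each standard error is the size of the log2 fold change divided by the root of F. "Fell" and "rose" mean that this test was passed. The genes and lists were chosen with earlier results of these data known. Genes of at least 5 CPM that passed are given by library. From each pathway list up to 2 called genes of smallest p per direction are named, and from each marker list the 2 of highest CPM and those at 0; some genes of these lists are not reported here.

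Alternatives were RLE and upper-quartile factors, no filter, at least 5 CPM, DESeq2 1.42.0, limma-voom (limma 3.58.1), the replicate block, each library left out, limma on log2(FPKM + 1) and log2(FPKM + 0.1) at a mean of at least 1 FPKM, and H2-Q and H2-T genes summed. Summing H2-Q6 with H2-Q7 was added after the data were seen. Pairs of replicates all differed beyond sampling noise (chi-square over its degrees of freedom, 1.81 to 3.26), and the fit was tested on simulated data. Coordinates are GENCODE M21 on GRCm38, and transcript windows of 50 bases came from its transcripts.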

Additional observations from a re-analysis of the deposited data

Results flagged for a closer look

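In 4 of 62 groups of 4 libraries (31 tested genes in each of the Ad-Cre and Ad-GFP groups) a single library stood apart by Dixon's criterion, where chance marks about 1 group in 20. H2-DMb1 was at 2.52 CPM in Ad-Cre replicate 1, against 4.17 to 4.37 CPM in the other Ad-Cre libraries. H2-M3 was at 3.64 CPM in the same library, above 1.87 to 2.15 CPM in the others. H2-K1 was at 221.5 CPM in Ad-GFP replicate 4, against 237 to 239.8 CPM in the other Ad-GFP libraries, and its fall passed the test without that library too. Tap2 was at 21.3 CPM in Ad-GFP replicate 2, against 18.9 to 19.1 CPM in the other Ad-GFP libraries.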

How the results depend on the processing

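Of the 31 tested genes, B2m, H2-D1, H2-K1, H2-Q6, H2-Q7, H2-T22, Cd74, Tap1, Psmb8 and Nlrc5 kept their fall under every alternative that gave them a value. Psmb8 came nearest to the threshold (adjusted p up to 0.0479). Without a library, 13 to 14 genes were lower, among them 5 to 7 heavy chain, 3 to 4 class II and 4 to 5 supply genes. At a mean of at least 5 CPM only 1 class II gene was tested and lower. Limma on log2(FPKM + 1) and on log2(FPKM + 0.1) called 3530 and 3520 genes in all, against 5370, and 0 of these genes higher. DESeq2 called 4575 genes and 13 of these lower. With the replicate block 5390 genes were called and 15 of these genes were lower, H2-T23 being added (adjusted p = 0.0363). Same-numbered samples correlated at -0.012 to 0.104 after removing group means. For replicates 1 and 2 this was above the highest correlation with another number (0.083 against 0.067, 0.104 against 0.066). For replicates 3 and 4 it was below (0.008 against 0.026, -0.012 against 0.033). Correlations this weak do not settle whether the numbers pair the samples.

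Direction was not settled for genes near 0. Psmb10 turned to -0.136 without Ad-Cre replicate 2, -0.0149 without Ad-GFP replicate 1, -0.0642 without Ad-GFP replicate 2, and -0.00257 and -0.00355 with limma on FPKM, and ranged from -0.136 to 0.179 without a library. H2-Bl turned to -0.111 and -0.0601 without Ad-GFP replicates 2 and 4, in a range up to 0.539. H2-T10 had -0.204 when the H2-T genes were summed, a value of the whole sum. The causes of the other turns were not tested. Low counts limit H2-Aa, H2-Ab1, H2-Eb1, H2-Q6 and H2-Q7.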
